A study of Homo sapiens with 12 samples.

Results

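Interferon stimulated genes are the genes that cells switch on when an interferon binds its receptor, and 47 of them were followed here in spheroids of α2 integrin negative and α2 integrin positive prostate cancer cells. The members were named one by one from gene symbols known for this response, at a time when earlier results of these data were known. Every one of the 47 symbols was found among the 26485 genes of the count and RPKM tables. The series holds RNA sequencing of 3 lines made from DU145 (an established line of human prostate cancer cells), with 4 biological replicates per line, 12 samples in all. All 3 lines carry the Crispr/Cas9 knock-out of ITGA2, the gene of the α2 integrin subunit, a receptor subunit for collagen. DU145KO is the untransfected knock-out, DU145KO+α2 was stably transfected with an α2 integrin cDNA in the pAWneo2 vector, and DU145KO+vector was stably transfected with the empty pAWneo2 vector. Both transfected lines were kept in geneticin and DU145KO was not, and each line is a single transfected or sorted population, so a difference between lines and a difference between these particular populations cannot be told apart. The cells were grown for 72 hours as spheroids of 8000 cells, 280000 cells per mold, in serum-free RPMI medium. The comparison of DU145KO+α2 with DU145KO+vector sets the α2 positive population beside its α2 negative vector control. The comparison of DU145KO+vector with DU145KO gives the difference between both α2 negative lines.

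Type I and type III interferons bind receptors that activate the kinases JAK1 and TYK2, which phosphorylate STAT2. It joins IRF9 in a complex that binds the interferon-stimulated response element in the promoters of its target genes. The targets include sensors of viral RNA, enzymes that degrade or modify RNA and proteins, and membrane proteins that block virus entry or release. In tumour cells the same genes are often active at a low level without added interferon.

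The total count per sample was 13948734 to 19988111 reads, and 3 counts, taken as the detection floor for counting error only, correspond to 0.150 to 0.215 CPM, which are counts scaled to the library size and normalized by TMM. ITGA2 was counted at 259 to 332 CPM in DU145KO+α2 and at 13.0 to 25.8 CPM in the 8 samples of the other lines. Markers of epithelial cells were abundant in every sample, with KRT8 at 319 to 623 CPM. The 5 epithelial markers (KRT8, KRT18, KRT19, EPCAM and CDH1) summed to 1210 to 1583 CPM in DU145KO, 859 to 1153 in DU145KO+α2 and 1141 to 1386 in DU145KO+vector. CDH1 was called lower in DU145KO+α2 than in both other lines, and EPCAM and KRT18 lower than in DU145KO. EPCAM and KRT18 were not called against DU145KO+vector (edgeR, adjusted p = 0.0917 and 0.172). EPCAM was also called lower in DU145KO+vector than in DU145KO (log2 fold change −0.83, adjusted p = 0.00093, edgeR). The part of these calls in the differences below was not tested. Of 6 immune cell markers, PTPRC and CD3E were at or below 0.0718 CPM in every sample, and the summed level of the 6 was 51.8 to 84.9 CPM in DU145KO, 59.6 to 77.0 in DU145KO+α2 and 57.8 to 82.6 in DU145KO+vector, most of it CD68. The 6 fibroblast and endothelial markers summed to 10.6 to 16.0 CPM, with COL3A1 at or below 0.198 CPM. Single genes of this last list were called in both directions in DU145KO+α2 against DU145KO+vector, which the sum does not show. In these bulk samples fewer cells of a type and less RNA per cell cannot be told apart.

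The promoters of the members are shown first, because the interferon-stimulated response element is what most of them share in sequence. RefSeq windows of 250 bases before to 50 bases after a gene start, on GRCh38.p14, were found for 38 of the 47 members, matched by gene ID. IRF7, USP18, IFIT2, OAS2, OASL, IFITM2, MX2, GBP2 and TRIM22 had no entry. The core searched on both strands was GAAANNGAAA, with N any base. It was present in 27 of the 38 members (71.1%), compared to 1195 of 27305 genes with a window (4.38%). Members called lower in the α2 positive line than in DU145KO+vector held it in 16 of 22 (72.7%) and the other members in 11 of 16 (68.8%), so the share was close in both. The core of the gamma-activated sequence, TTCNNNGAA, was present in 12 of 38 members (31.6%) and 2560 of 27305 genes (9.38%). A match describes these letters and was not tested as a binding site.

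The stretches below run from 140 bases before to 10 bases after the RefSeq start, 5′ to 3′ on the strand of the gene, with each match to the response element core in capitals (TTTC first where it lies on the other strand). They were chosen to show a pair of separate cores (DDX60 and IFIT1), overlapping cores (ISG15), a single core (IFI44), a core shared by a pair of divergent genes (DTX3L), an IFITM gene (IFITM3) and a sensor gene without a match (DDX58, named RIGI in the current annotation).
DDX60, chr4:168318743-168318892, minus strand: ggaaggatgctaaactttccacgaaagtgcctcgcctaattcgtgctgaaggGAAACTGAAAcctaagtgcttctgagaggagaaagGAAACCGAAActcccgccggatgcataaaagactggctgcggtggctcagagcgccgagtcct
IFIT1, chr10:89392483-89392632, plus strand: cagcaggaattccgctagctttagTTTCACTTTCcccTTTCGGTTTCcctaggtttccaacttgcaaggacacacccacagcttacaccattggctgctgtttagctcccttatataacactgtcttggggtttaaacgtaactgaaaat
ISG15, chr1:1013357-1013506, plus strand: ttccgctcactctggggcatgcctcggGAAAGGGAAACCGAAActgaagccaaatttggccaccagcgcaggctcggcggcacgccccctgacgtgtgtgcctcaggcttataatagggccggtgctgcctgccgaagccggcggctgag
IFI44, chr1:78649691-78649840, plus strand: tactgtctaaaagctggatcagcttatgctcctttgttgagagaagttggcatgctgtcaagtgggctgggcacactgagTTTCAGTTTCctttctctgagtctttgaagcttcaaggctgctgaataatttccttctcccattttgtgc
DTX3L, chr3:122564198-122564347, plus strand: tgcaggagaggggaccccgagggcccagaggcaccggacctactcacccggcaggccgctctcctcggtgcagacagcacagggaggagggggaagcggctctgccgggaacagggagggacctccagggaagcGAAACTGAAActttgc
IFITM3, chr11:320851-321000, minus strand: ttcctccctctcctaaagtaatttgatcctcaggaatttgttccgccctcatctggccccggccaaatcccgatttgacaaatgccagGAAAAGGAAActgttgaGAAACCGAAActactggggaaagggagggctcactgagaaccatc
DDX58, chr9:32526187-32526336, minus strand: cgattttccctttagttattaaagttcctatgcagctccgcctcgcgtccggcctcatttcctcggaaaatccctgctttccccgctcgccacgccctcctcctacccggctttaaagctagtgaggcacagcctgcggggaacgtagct

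The core of DTX3L lay at chr3:122564332-122564341, and PARP9, transcribed in the other direction, has the same 10 bases in its own window, which overlaps that of DTX3L by 137 bases. Members without the core in their windows were STAT2, IRF1, IRF9, DDX58, HERC6, TRIM25, OAS1, CMPK2, SAMD9L, XAF1 and IFI35, 11 in all. Several of these (DDX58, HERC6, XAF1 and IFI35) were among the members with the smallest adjusted p in the comparisons below. Many members also lie side by side in the genome. The largest cluster was on chromosome 10 with IFIT2, IFIT3, IFIT1 and IFIT5 (chr10:89283694-89421605), followed by clusters of 3 members with OAS1, OAS3 and OAS2 on chromosome 12, IFITM2, IFITM1 and IFITM3 on chromosome 11, and PARP9, DTX3L and PARP14 on chromosome 3.

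Levels between genes were compared per gene length, on the deposited RPKM scale. The median member stood at 8.81 RPKM in DU145KO, 7.41 RPKM in DU145KO+vector and 4.58 RPKM in DU145KO+α2. IFITM3 was the most abundant member in every line, at 152 ± 52.3 RPKM (SD, n = 4) in DU145KO, 96.5 ± 27.1 RPKM in DU145KO+vector and 93.8 ± 28.4 RPKM in DU145KO+α2. IFI6, a mitochondrial and endoplasmic reticulum membrane protein, and the ubiquitin-like protein ISG15 followed in DU145KO, at 114 ± 67.5 and 66.6 ± 21.6 RPKM, and neither differed from its neighbour in this order by more than the spread between replicates. At the other end, 8 members (GBP1, RSAD2, CMPK2, TRIM22, SAMD9L, XAF1, IFI44L and EPSTI1) stayed below 1 RPKM in every line.

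Most interferon stimulated genes were lower in the α2 positive line. Of the 44 members that passed the filter on low counts, 25 were called lower and 2 higher in DU145KO+α2 compared to DU145KO+vector, where a gene is called at an adjusted p below 0.05 in edgeR's quasi-likelihood test, adjusted by the Benjamini-Hochberg method over 14732 genes. That is 56.8% of the members tested called lower and 4.55% called higher, beside 5.95% and 5.96% of all genes tested. Compared to DU145KO, 31 members (70.5%) were lower in DU145KO+α2 and 0 higher (edgeR, with 0 higher at an unadjusted p below 0.05 and 0 by DESeq2 and by voom with limma), beside 5.08% of all genes lower and 3.09% higher. These comparisons share the 4 DU145KO+α2 samples. Between the α2 negative lines, DU145KO+vector had 3 members lower than DU145KO and 0 higher (1, DDX60, at an unadjusted p below 0.05, and 0 by DESeq2 and limma), beside 1.84% and 0.496% of all genes. With single samples left out in turn, 19 to 29 members were called lower in the α2 positive line against DU145KO+vector, fewest without its replicate 3, and 26 to 36 against DU145KO. The share of all genes was not computed for these fits. RSAD2, TRIM22 and EPSTI1 did not pass the filter. GBP1, CMPK2, BST2, SAMD9L, XAF1 and IFI44L passed it only through the α2 negative lines, where they were higher. Of these, CMPK2, XAF1 and IFI44L are among the 25 called lower against DU145KO+vector, and all are among the 31 against DU145KO. Their calls are therefore not independent of the filter. A fit without the filter also made these calls.

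The median log2 fold change of the 44 members was −0.70 in DU145KO+α2 compared to DU145KO+vector, −0.97 compared to DU145KO, and −0.22 in DU145KO+vector compared to DU145KO. Over all genes tested it was −0.006, −0.003 and −0.001. A negative log2 fold change was found for 42, 43 and 32 of the 44 members in these comparisons. The summed level of all 47 members was 1065 to 1209 CPM in DU145KO+α2, 1457 to 1801 CPM in DU145KO+vector and 1473 to 2268 CPM in DU145KO, so the α2 positive samples were all below the α2 negative ones.

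**Figure D1:**
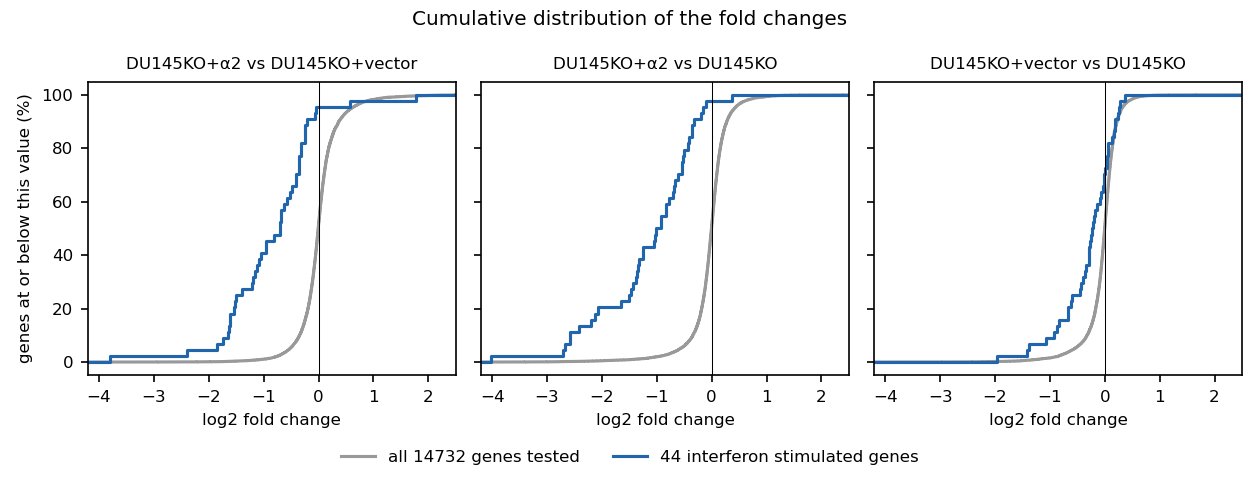
Cumulative distribution of the log2 fold changes (horizontal axis, with a few genes beyond its ends) of the 44 members tested (blue) and of all 14732 genes tested (grey), with the share of genes at or below each value in percent on the vertical axis. The blue curve lies to the left of the grey one in the comparisons with DU145KO+α2, with medians of −0.70 and −0.97, and nearer to it in DU145KO+vector compared to DU145KO, with a median of −0.22.

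With a fold change above 2 as a further condition, 13 members were lower in the α2 positive line than in DU145KO+vector (0.821% of all genes) and 18 lower than in DU145KO (1.67% of all genes). All 4 samples of DU145KO+α2 lay below all 4 samples of DU145KO+vector for 32 of the 44 members (8.8% of all genes) and below all 4 DU145KO samples for 33 (7.43% of all genes). The replicate numbers 1 to 4 recur in the lines and samples of the same number deviated together, so the counts are also given for a model that blocks on the replicate number (the block). Then 35 members were lower and 2 higher in DU145KO+α2 against DU145KO+vector (13.7% and 12.9% of all genes), and 40 were lower and 1 higher compared to DU145KO (12.4% and 9.93%). DU145KO+vector had 13 members lower and 1 higher than DU145KO under this block (7.85% and 5.59% of all genes). Every member called without the block was called in the same direction with it.

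Of the 4 signalling factors of the pathway, 1 was called lower in each comparison with DU145KO+α2 and 0 higher. STAT2, which works with IRF9 in the transcription factor complex, was counted at 157, 155, 156 and 137 CPM in DU145KO, at 146, 155, 161 and 131 CPM in DU145KO+vector and at 138, 144, 156 and 128 CPM in DU145KO+α2, and the lines overlapped. Its log2 fold change in DU145KO+α2 was −0.07 compared to DU145KO+vector and −0.09 compared to DU145KO (adjusted p = 0.667 and 0.573, edgeR). IRF7, which amplifies interferon production, was lower in the α2 positive line than in DU145KO+vector (log2 fold change −0.35, adjusted p = 0.043, a call lost on leaving out any sample of these lines except replicate 4 of DU145KO+α2), and IRF1, a transcription factor induced by interferon gamma, was lower than in DU145KO (log2 fold change −0.55, adjusted p = 0.00877). IRF9 had a log2 fold change of −0.33 compared to DU145KO+vector (adjusted p = 0.0605, and 0.00336 with the block).

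All 4 RNA sensors were called lower in DU145KO+α2 than in either α2 negative line, EIF2AK2 by a narrow margin against DU145KO+vector. DDX60, a helicase that promotes signalling by the RIG-I family of sensors, stood at 16.6, 12.7, 13.6 and 12.1 CPM in DU145KO+α2 (in the order of the replicate numbers, here and below), at 52.4, 48.0, 35.4 and 32.9 CPM in DU145KO+vector and at 37.9, 27.2, 35.6 and 30.0 CPM in DU145KO. The α2 positive samples were all below the others, while both α2 negative lines overlapped. Its log2 fold change, given with its standard error (SE), was −1.62 (SE 0.16, adjusted p = 3.13e-05, edgeR) compared to DU145KO+vector, that is 3.07 times lower, and −1.25 (SE 0.16, adjusted p = 0.000243) compared to DU145KO. It had the smallest adjusted p of the members in the first comparison.

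DDX58 encodes RIG-I, the cytoplasmic sensor of RNA with a 5′ triphosphate. Its level was 18.9, 16.7, 16.8 and 19.1 CPM in the 4 samples of DU145KO+α2, 33.1, 34.3, 28.6 and 29.3 CPM in those of DU145KO+vector and 38.8, 26.4, 30.0 and 31.5 CPM in those of DU145KO. The highest α2 positive sample was thus below the lowest α2 negative sample. Its log2 fold changes were close in size, −0.81 (SE 0.11, adjusted p = 0.000222) and −0.83 (SE 0.11, adjusted p = 0.000243), compared to DU145KO+vector and DU145KO.

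IFIH1, which encodes MDA5, the sensor of long double-stranded RNA, was at 7.57, 8.34, 6.38 and 7.70 CPM in DU145KO+α2, at 13.0, 13.7, 10.5 and 11.9 CPM in DU145KO+vector and at 18.4, 13.2, 14.9 and 15.4 CPM in DU145KO. Again the α2 positive samples did not overlap with either line. The log2 fold change was −1.05 (SE 0.13, adjusted p = 0.000139, edgeR) compared to DU145KO and −0.71 (adjusted p = 0.00214) compared to DU145KO+vector. EIF2AK2, the RNA activated kinase PKR that stops translation, had the smallest change of the members called lower, with log2 fold changes of −0.24 and −0.42 compared to DU145KO+vector and DU145KO. Its call in the first comparison (adjusted p = 0.0395, edgeR) was lost with DESeq2 size factors, without the filter on low counts, and on leaving out any sample of either line or replicate 1 of DU145KO.

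**Figure D2:**
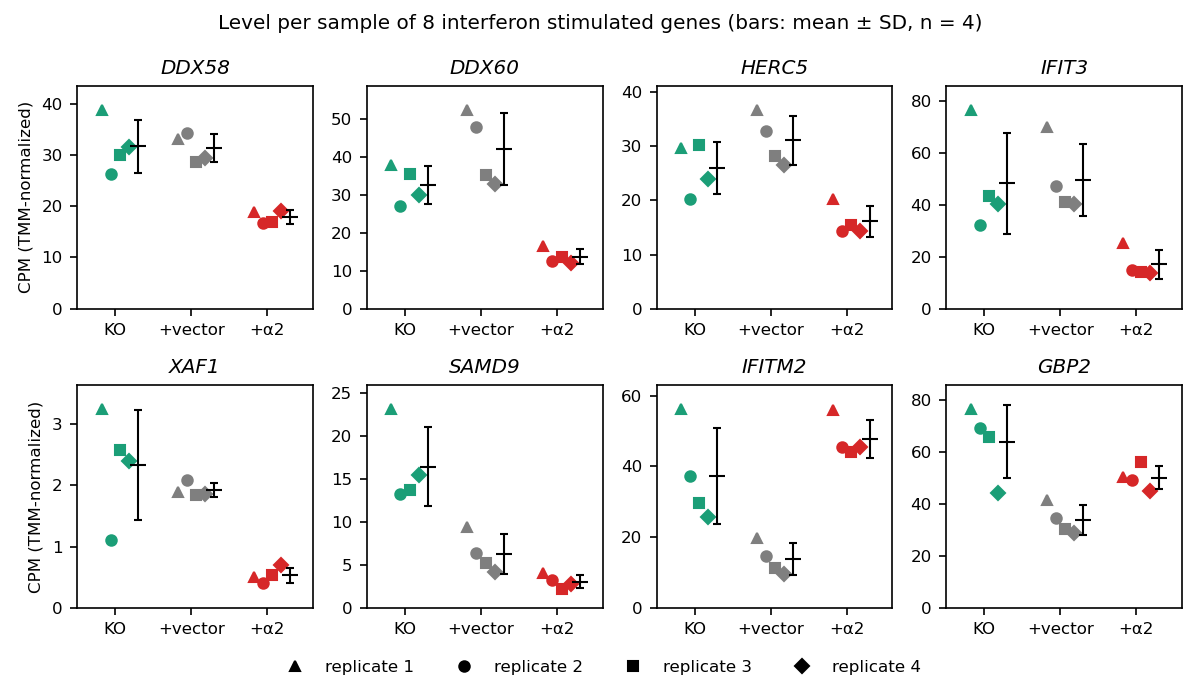
CPM (TMM-normalized, linear axis from 0) of 8 members in each sample, with one marker shape per replicate number and the mean ± SD (n = 4) of each line in black. DDX58, DDX60, HERC5, IFIT3, XAF1 and SAMD9 lie lower in every DU145KO+α2 sample than in every DU145KO+vector sample, whereas IFITM2 and GBP2 lie higher.

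The ISG15 system attaches the ubiquitin-like protein ISG15 to other proteins, and 3 of its 5 members were called lower in the α2 positive line than in DU145KO+vector and 4 lower than in DU145KO. ISG15 itself was counted at 27.6, 23.9, 19.95 and 22.5 CPM in DU145KO+α2, at 69.3, 49.2, 43.7 and 40.9 CPM in DU145KO+vector and at 61.0, 27.2, 41.2 and 49.4 CPM in DU145KO. Its α2 positive samples were below all DU145KO+vector samples but overlapped with replicate 2 of DU145KO. The log2 fold change was −1.12 compared to DU145KO+vector (adjusted p = 0.00939) and −0.93 compared to DU145KO (adjusted p = 0.0317). The call compared to DU145KO was lost without the filter on low counts. It was also lost on leaving out any sample of DU145KO+α2 or DU145KO except replicate 2 of DU145KO.

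HERC5, the main ligase for ISG15, was at 20.3, 14.3, 15.5 and 14.4 CPM in DU145KO+α2, at 36.7, 32.8, 28.2 and 26.6 CPM in DU145KO+vector and at 29.8, 20.3, 30.3 and 23.9 CPM in DU145KO. The α2 positive samples were below all others, although replicate 2 of DU145KO nearly met replicate 1 of DU145KO+α2 (20.33 and 20.29 CPM). Its log2 fold change was −0.95 (SE 0.15, adjusted p = 0.000724, edgeR) compared to DU145KO+vector and −0.69 (adjusted p = 0.00835) compared to DU145KO. HERC6, its neighbour on chromosome 4 and a related HECT domain ligase, was at 25.3, 21.4, 19.9 and 18.8 CPM in DU145KO+α2, at 37.8, 36.0, 29.7 and 35.1 CPM in DU145KO+vector and at 39.4, 33.3, 30.3 and 31.9 CPM in DU145KO. The α2 positive samples were again below all others, with log2 fold changes of −0.70 (SE 0.11, adjusted p = 0.000679) and −0.66 (adjusted p = 0.00139).

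USP18, which removes ISG15 and dampens the type I receptor, was lower in DU145KO+α2 than in DU145KO (log2 fold change −0.50, adjusted p = 0.00949). Compared to DU145KO+vector its log2 fold change was −0.35 (adjusted p = 0.0511, and 0.00118 with the block). TRIM25, the ligase that acts with RIG-I, had log2 fold changes of −0.24 (adjusted p = 0.122, and 0.00553 with the block) and −0.32 (adjusted p = 0.0511, and 0.000617 with the block).

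PARP9, DTX3L and PARP14, which form or neighbour an ADP-ribosylation and ubiquitin ligase complex, were all called lower in DU145KO+α2 than in both lines. DTX3L, the ligase, was at 33.4, 36.6, 31.9 and 36.8 CPM in DU145KO+α2, at 44.1, 48.7, 44.4 and 46.8 CPM in DU145KO+vector and at 59.0, 54.7, 45.8 and 52.3 CPM in DU145KO. PARP14 was at 60.6, 69.8, 67.2 and 66.3 CPM, at 74.0, 88.3, 85.9 and 82.2 CPM and at 96.3, 100.2, 85.3 and 100.2 CPM in the same order of lines. For both genes the spread within a line was small and the α2 positive samples were below all others. Compared to DU145KO the log2 fold change was −0.61 (SE 0.08, adjusted p = 0.000282, edgeR) for DTX3L, −0.53 (SE 0.08, adjusted p = 0.000421) for PARP14 and −0.82 (adjusted p = 0.00158) for PARP9. Compared to DU145KO+vector these were −0.41, −0.32 and −0.58. The exons of DTX3L and PARP9 overlap on opposite strands over 2.41% and 1.56% of their length, and whether the counting used the strand is not given in the sources used here.

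The 4 IFIT genes, whose proteins bind foreign RNA and block its translation, were called lower in DU145KO+α2 than in each of the other lines. IFIT3 was counted at 25.3, 15.03, 13.99 and 13.9 CPM in DU145KO+α2, at 70.0, 47.1, 40.9 and 40.3 CPM in DU145KO+vector and at 76.6, 32.4, 43.6 and 40.4 CPM in DU145KO. Replicate 1 was the highest sample of every line, and the lowest α2 negative sample was still above the highest α2 positive one. IFIT3 had log2 fold changes of −1.54 and −1.50 compared to DU145KO+vector and DU145KO (adjusted p = 0.00906 and 0.014, edgeR), IFIT1 of −1.51 and −1.33, and IFIT2 of −1.39 and −1.33. IFIT5, the fourth gene of this cluster, had smaller values (−0.35 and −0.43), and its calls in both comparisons (adjusted p = 0.037 in the first) were lost when some single samples were left out. Its level per length in DU145KO, 4.56 RPKM, was below that of IFIT3 at 16.9 RPKM.

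The OAS enzymes make the short adenylate chains that activate RNase L, and OASL is a relative without this activity. OAS1 was counted at 5.59, 3.35, 4.13 and 3.31 CPM in DU145KO+α2, at 14.3, 10.05, 11.2 and 14.1 CPM in DU145KO+vector and at 34.2, 9.89, 11.9 and 19.4 CPM in DU145KO. The DU145KO samples spread most, and the α2 positive samples were below all of them. OAS1 was lower in DU145KO+α2 by a log2 fold change of −1.61 compared to DU145KO+vector (adjusted p = 0.0155) and of −2.20 compared to DU145KO (adjusted p = 0.00338). OASL was called in the first comparison only (−1.53, adjusted p = 0.0155, against −1.25, adjusted p = 0.0513, in the second, where it was 0.00123 with the block). OAS2 and OAS3 were called compared to DU145KO (−2.08 and −1.03, adjusted p = 0.0169 and 0.0338). The OAS3 call was lost without the filter on low counts, in the fit of both lines only, and on leaving out some single samples. These were replicate 1 or 4 of DU145KO, any DU145KO+α2 sample or replicate 1 of DU145KO+vector. Compared to DU145KO+vector, OAS2 and OAS3 had log2 fold changes of −1.20 (adjusted p = 0.134, and 0.0256 with the block) and −0.68 (adjusted p = 0.13, and 0.0886 with the block). Whether the 2 comparisons differ was not tested.

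The IFITM genes, which encode small membrane proteins that restrict virus entry, had 1 of 3 members called higher and 0 lower in DU145KO+α2 compared to the empty vector line. IFITM2 was counted at 55.9, 45.4, 44.2 and 45.6 CPM in DU145KO+α2, at 19.9, 14.8, 11.2 and 9.57 CPM in DU145KO+vector and at 56.2, 37.2, 29.6 and 25.8 CPM in DU145KO. The DU145KO+vector samples were below all samples of both other lines, and DU145KO and DU145KO+α2 overlapped. The log2 fold change was 1.78 (SE 0.27, adjusted p = 0.00134, edgeR) in DU145KO+α2 compared to DU145KO+vector, that is 3.43 times higher, and −1.42 (SE 0.27, adjusted p = 0.0194) in DU145KO+vector compared to DU145KO. Between DU145KO+α2 and DU145KO it was 0.36 (adjusted p = 0.465, and 0.0189 with the block).

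IFITM1, on the same cluster, was at 4.41, 2.70, 1.89 and 2.86 CPM in DU145KO+α2, at 6.81, 4.45, 3.68 and 3.92 CPM in DU145KO+vector and at 14.7, 4.64, 4.73 and 6.26 CPM in DU145KO. It had log2 fold changes of −0.68 (adjusted p = 0.332, and 0.00683 with the block) compared to DU145KO+vector and −1.35 (adjusted p = 0.0539, and 7.47e-06 with the block) compared to DU145KO. IFITM3 was at 49.4 to 89.5 CPM in DU145KO+α2 and at 47.6 to 88.9 CPM in DU145KO+vector, and the lines overlapped (log2 fold change −0.05, adjusted p = 0.946). Compared to DU145KO its log2 fold change was −0.71 in DU145KO+α2 (adjusted p = 0.155, and 1.42e-07 with the block) and −0.67 in DU145KO+vector (adjusted p = 0.278, and 1.11e-06 with the block). The IFITM genes are similar in sequence, and only uniquely aligned reads were counted, so the split of reads between them is uncertain, and the same holds for the IFIT, OAS and GBP families.

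**Figure D3:**
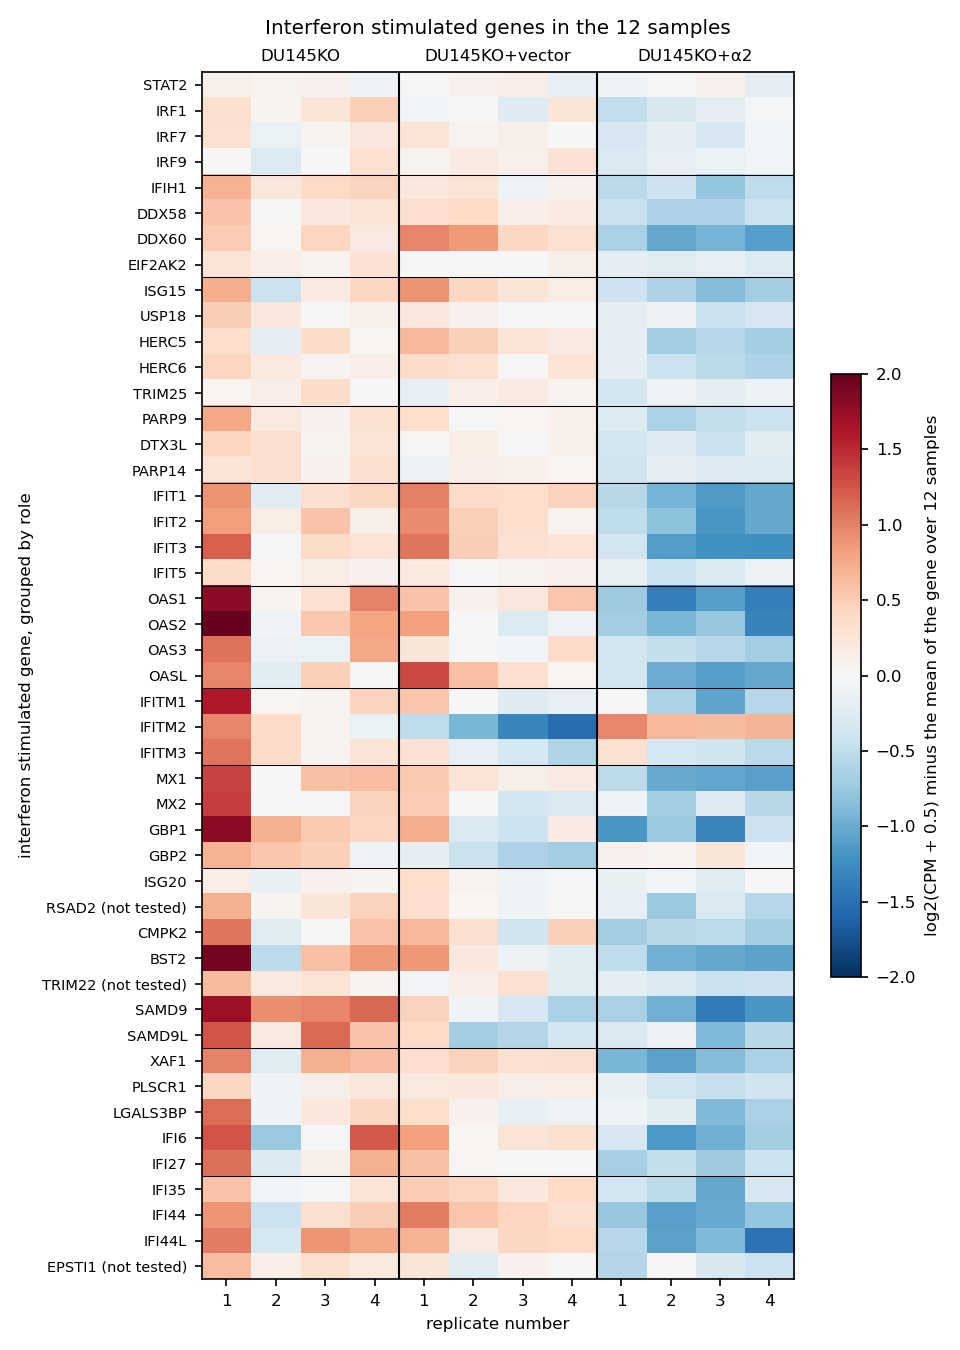
Level of the 47 members (rows, grouped by role) in the 12 samples (columns, ordered by line and replicate number), as log2(CPM + 0.5) minus the mean of the gene over all samples, with red above and blue below that mean and colours at their limit beyond −2 or 2. The DU145KO+α2 columns are blue for most rows, IFITM2 is red there and blue in DU145KO+vector, and the columns of replicate 1 are the reddest of DU145KO and DU145KO+vector.

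Among the GTPases, MX1, which traps viral nucleocapsids, was lower in DU145KO+α2, at 13.4, 9.49, 9.27 and 8.97 CPM, than in DU145KO+vector, at 28.2, 23.4, 21.1 and 22.2 CPM, and DU145KO, at 50.8, 19.6, 29.4 and 30.2 CPM. No α2 positive sample reached an α2 negative one. The log2 fold changes were −1.21 (adjusted p = 0.00763, edgeR) and −1.66 (adjusted p = 0.00144). Exons of MX1 overlap those of TMPRSS2 on the opposite strand over 3.12% of their length. Its neighbour MX2 had −0.41 (adjusted p = 0.511) and −1.02 (adjusted p = 0.0806, and 0.0011 with the block). GBP1, a guanylate-binding protein, was at 0.177 to 0.763 CPM in DU145KO+α2, 0.747 to 2.27 CPM in DU145KO+vector and 1.76 to 5.36 CPM in DU145KO, with log2 fold changes of −1.64 (adjusted p = 0.07, and 0.006 with the block) and −2.71 (adjusted p = 0.00382). As GBP1 passed the filter on low counts only through the α2 negative lines, these sizes are uncertain.

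GBP2 was the other member called higher in the α2 positive line than in DU145KO+vector. Its level was 50.3, 49.0, 56.2 and 45.2 CPM in the 4 samples of DU145KO+α2, 41.4, 34.5, 30.5 and 28.8 CPM in those of DU145KO+vector and 76.5, 69.4, 65.8 and 44.1 CPM in those of DU145KO. As for IFITM2, the DU145KO+vector samples were the lowest of the 12. The log2 fold change was 0.57 (SE 0.15, adjusted p = 0.0252) in DU145KO+α2 against DU145KO+vector and −0.92 (SE 0.15, adjusted p = 0.00588) in DU145KO+vector compared to DU145KO. Between DU145KO+α2 and DU145KO it was −0.35 (adjusted p = 0.19, and 0.0234 with the block). The call of GBP2 against DU145KO+vector was lost on leaving out replicate 1 or 3 of DU145KO+α2 or replicate 2, 3 or 4 of DU145KO+vector. Exons of GBP2 overlap those of GBP7 on the same strand over 8.6% of their length.

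SAMD9, a cytoplasmic restriction factor of poxviruses, was counted at 4.10, 3.196, 2.24 and 2.74 CPM in DU145KO+α2, at 9.47, 6.39, 5.23 and 4.13 CPM in DU145KO+vector and at 23.1, 13.3, 13.8 and 15.5 CPM in DU145KO. The lines formed 3 levels without overlap, though replicate 1 of DU145KO+α2 and replicate 4 of DU145KO+vector nearly met. It was the member with the smallest adjusted p compared to DU145KO (log2 fold change −2.42, SE 0.26, adjusted p = 7.76e-05, edgeR), that is 5.34 times lower. Compared to DU145KO+vector the log2 fold change was −1.05 (adjusted p = 0.0214), and DU145KO+vector was itself lower than DU145KO (−1.37, SE 0.25, adjusted p = 0.00856). SAMD9L, the adjacent paralog on chromosome 7, was counted 75 times in DU145KO, 19 times in DU145KO+vector and 13 times in DU145KO+α2 over 4 samples. Its call compared to DU145KO (log2 fold change −2.58, adjusted p = 0.0189) rests on these few counts.

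BST2, the tether that holds virions at the cell surface, was lower in DU145KO+α2 than in DU145KO (log2 fold change −2.58, adjusted p = 0.0153) and had −1.75 (adjusted p = 0.0909, and 0.00187 with the block) compared to DU145KO+vector. CMPK2, a mitochondrial nucleotide kinase next to RSAD2, was counted 2 times over the 4 DU145KO+α2 samples, 32 times over DU145KO+vector and 38 times over DU145KO. By counts scaled to the library sizes it was 17.2 times higher in DU145KO+vector than in DU145KO+α2 (95% counting interval 4.39 to 148) and 20.1 times higher in DU145KO (5.21 to 172). Both BST2 and CMPK2 passed the filter on low counts only through the α2 negative lines, so the sizes given for them are uncertain. Exons of CMPK2 and RSAD2 overlap on opposite strands over 8.0% and 6.2% of their length. ISG20, an RNA exonuclease, was at 19.1 to 22.7 CPM in DU145KO+α2, 21.5 to 29.2 CPM in DU145KO+vector and 20.4 to 25.2 CPM in DU145KO, and was called in no comparison with or without the block.

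Of the 5 members with roles in apoptosis or at membranes, XAF1, an inhibitor of XIAP, changed most. Its level was 0.496, 0.400, 0.531 and 0.700 CPM in the 4 samples of DU145KO+α2, 1.88, 2.08, 1.84 and 1.86 CPM in those of DU145KO+vector and 3.24, 1.10, 2.58 and 2.40 CPM in those of DU145KO. The α2 positive samples were below all others although the gene was low throughout. The log2 fold change was −1.85 (SE 0.32, adjusted p = 0.00136, edgeR) compared to DU145KO+vector and −2.13 (SE 0.31, adjusted p = 0.00048) compared to DU145KO. XAF1 passed the filter on low counts only through the α2 negative lines, so these sizes are uncertain and the calls depend on the filter. PLSCR1, a phospholipid scramblase, had log2 fold changes of −0.52 and −0.53 (adjusted p = 0.00214 and 0.00266).

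IFI6 was counted at 49.4, 27.8, 31.5 and 38.1 CPM in DU145KO+α2, at 110, 64.2, 74.7 and 77.7 CPM in DU145KO+vector and at 149, 37.0, 60.9 and 147 CPM in DU145KO. Its 4 DU145KO samples spread widely and overlapped with both other lines, and neither comparison passed the threshold (log2 fold change −1.16, adjusted p = 0.112, and −1.43, adjusted p = 0.0701), while both did with the block (adjusted p = 0.0304 and 0.024). IFI27, a mitochondrial membrane protein, was lower compared to DU145KO (−1.48, adjusted p = 0.0147) and had −1.09 compared to DU145KO+vector (adjusted p = 0.0631, and 0.011 with the block). LGALS3BP, a secreted galectin-3 binding glycoprotein, had −0.49 (adjusted p = 0.291) and −0.92 (adjusted p = 0.0581, and 0.0143 with the block).

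The remaining members tested were all called lower in DU145KO+α2 than in both lines. IFI44, which restricts virus growth by a mechanism that is not well known, was at 4.65, 3.60, 3.84 and 4.58 CPM in DU145KO+α2, at 17.4, 12.3, 11.2 and 10.3 CPM in DU145KO+vector and at 15.5, 5.92, 10.3 and 11.8 CPM in DU145KO. The nearest α2 negative sample was replicate 2 of DU145KO. IFI44 had a log2 fold change of −1.63 (SE 0.25, adjusted p = 0.000768, edgeR) compared to DU145KO+vector and −1.38 (adjusted p = 0.00316) compared to DU145KO. IFI44L, beside it on chromosome 1, had −2.40 (adjusted p = 0.00267) and −2.68 (adjusted p = 0.00142), at 0.0636 to 0.559 CPM in DU145KO+α2, some of it below the detection floor. IFI44L passed the filter only through the α2 negative lines, so these sizes are uncertain.

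IFI35, a partner of NMI in innate immune signalling, was at 12.9, 11.6, 8.15 and 13.3 CPM in DU145KO+α2, at 24.3, 23.0, 20.01 and 22.6 CPM in DU145KO+vector and at 25.5, 16.4, 16.5 and 20.4 CPM in DU145KO. The α2 positive samples did not overlap with the others. The log2 fold change was −0.97 (SE 0.16, adjusted p = 0.00102) compared to DU145KO+vector and −0.77 (adjusted p = 0.00615) compared to DU145KO. Of the members that were not tested, RSAD2, the antiviral enzyme viperin, had 4, 0, 3 and 1 counts in DU145KO+α2, 10, 5, 5 and 5 in DU145KO+vector and 13, 6, 8 and 11 in DU145KO. TRIM22 and EPSTI1 had at most 14 counts in a sample.

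**Figure D4:**
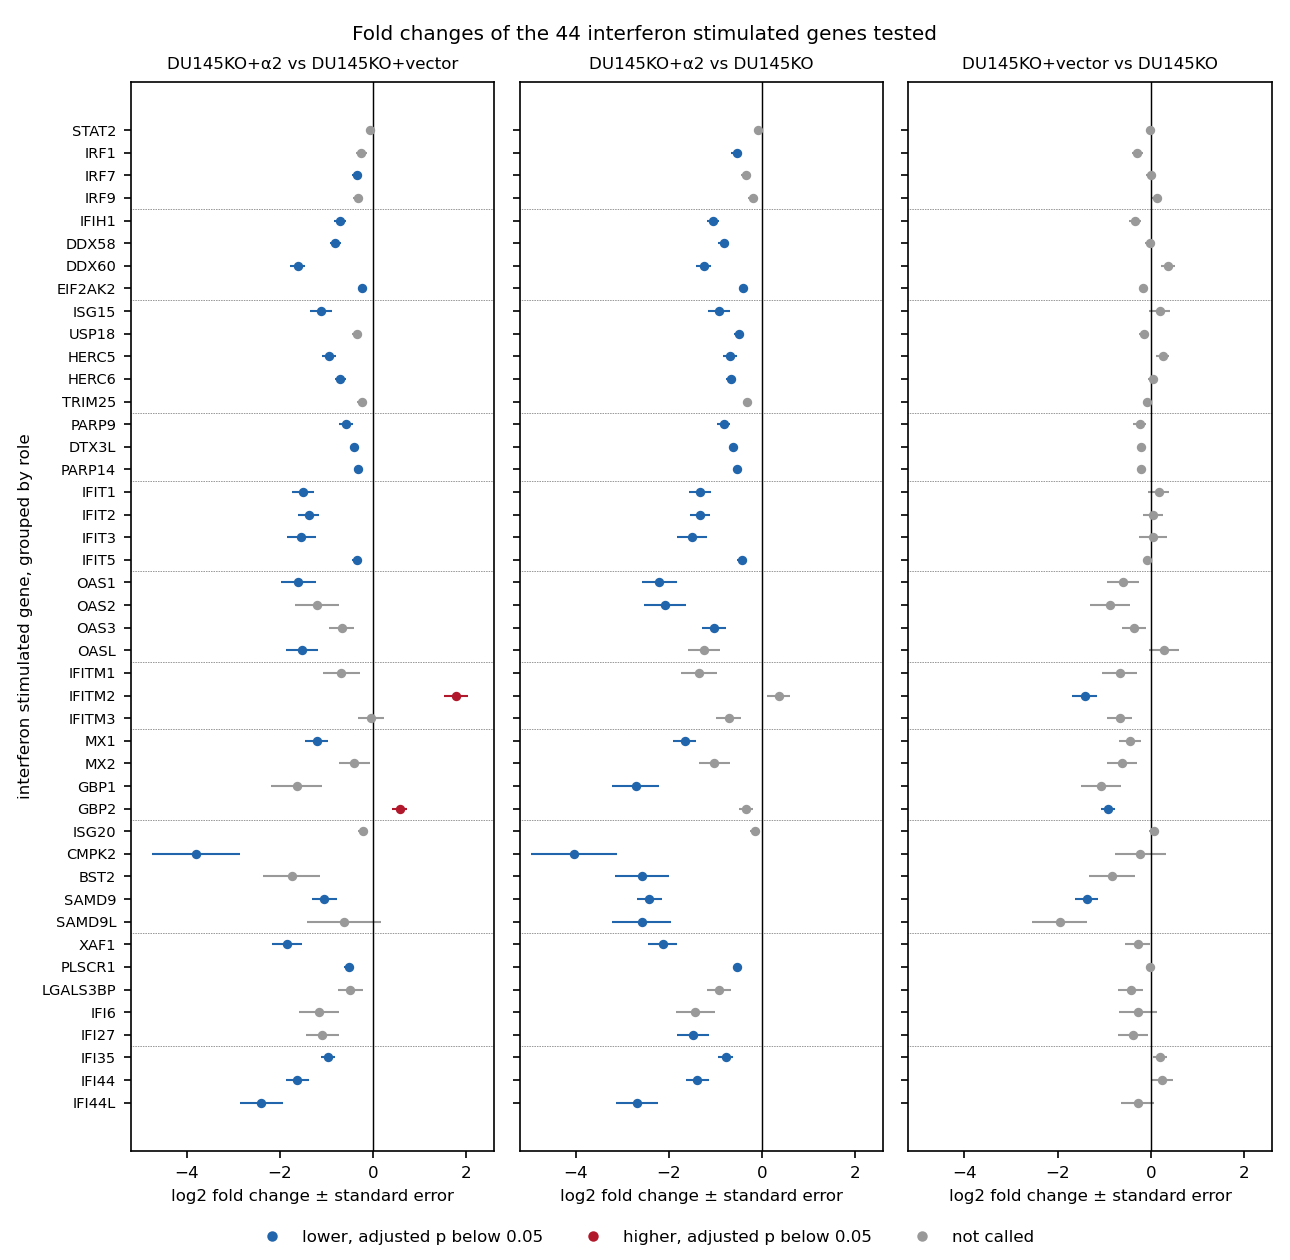
Log2 fold change ± standard error (SE) (edgeR) of the 44 members tested, one row per gene in the order of the roles, in each of the 3 comparisons. Blue marks members called lower, red members called higher and grey members that were not called, with 25 blue and 2 red in DU145KO+α2 compared to DU145KO+vector, 31 blue compared to DU145KO and 3 blue in DU145KO+vector compared to DU145KO.

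Between both α2 negative lines, GBP2, SAMD9 and IFITM2 were the 3 members called, all lower in DU145KO+vector. With the block, 10 further members were called lower, namely IRF1, IFIH1, PARP9, DTX3L, PARP14, IFITM1, IFITM3, MX2, GBP1 and SAMD9L, and DDX60 was called higher (log2 fold change 0.37, adjusted p = 0.264, and 0.0294 with the block). The IFIT and OAS genes and the ISG15 system had no member called in this comparison in either fit. IFIT3, for instance, had a log2 fold change of 0.04 (adjusted p = 0.969).

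The rest of the interferon pathway was followed with 74 further genes, of which 58 passed the filter. DU145KO+α2 had 16 of them lower (27.6%, beside 5.95% of all genes) and 1 higher (IFI16, 1.72% beside 5.96%) compared to DU145KO+vector. Against DU145KO 20 were lower (34.5%, beside 5.08% of all genes) and 0 higher (beside 3.09%). DU145KO+vector had 2 lower than DU145KO, IRF8 and IFI16 (3.45%, beside 1.84% of all genes). With the block the lower calls numbered 22, 32 and 10 (beside 13.7%, 12.4% and 7.85% of all genes) and the higher ones 3, 0 and 2 (beside 12.9%, 9.93% and 5.59%). The ligands had few or no counts. Of 12 interferon genes, IFNA1, IFNA2, IFNA5, IFNA21, IFNK, IFNW1 and IFNG had 0 counts in all 12 samples, which allows up to 3 counts per sample (0.150 to 0.215 CPM). IFNB1, IFNL1, IFNL2 and IFNL3 had at most 3 counts in a sample, and IFNE, an epithelial type I interferon, averaged 1.79 CPM in DU145KO+α2, 1.52 in DU145KO+vector and 1.60 in DU145KO and was not called.

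Of the 10 genes listed for the receptors and the signalling directly behind them, JAK2 was the single one called without the block. It was lower in the α2 positive line than in DU145KO+vector (log2 fold change −0.43, adjusted p = 0.0171). With the block, IFNAR1, IL10RB, JAK1 and JAK2 were called lower than in DU145KO (edgeR, adjusted p = 0.0491, 0.0212, 0.00177 and 0.0269), beside 12.4% of all genes. Their log2 fold changes were −0.15, −0.23, −0.26 and −0.31. A further gene of this list was then lower than in DU145KO+vector. JAK1 was also lower in DU145KO+vector than in DU145KO with the block (log2 fold change −0.20, adjusted p = 0.0263, edgeR). The receptor subunits IFNAR1 and IFNAR2 had log2 fold changes of −0.11 and −0.02 compared to DU145KO+vector. Among 12 sensing genes, DHX58, the third member of the RIG-I family, fell by 1.82 and 2.44 on the log2 scale compared to DU145KO+vector and DU145KO (adjusted p = 0.00525 and 0.00075), and TLR3, the endosomal sensor of double-stranded RNA, by 1.30 and 1.91 (adjusted p = 0.0109 and 0.000715). TMEM173, which encodes STING, was lower compared to DU145KO (−0.54, adjusted p = 0.00506). Against DU145KO+vector its log2 fold change was −0.18 (adjusted p = 0.348, and 0.0886 with the block, edgeR). In DU145KO+vector compared to DU145KO it was −0.36 (adjusted p = 0.099, and 0.00238 with the block). MAVS, TBK1 and IRF3 were not called without the block. With it, MAVS was higher than in DU145KO+vector (log2 fold change 0.14, adjusted p = 0.0485, edgeR).

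The pathway genes with the smallest adjusted p compared to DU145KO+vector were TDRD7 (log2 fold change −0.63, SE 0.08, adjusted p = 0.000155), PARP10 (−1.13, SE 0.15, adjusted p = 0.000236), NLRC5, the regulator of MHC class I genes (−0.71, SE 0.10, adjusted p = 0.000267), and TRIM14 (−0.59, SE 0.11, adjusted p = 0.00179, all from edgeR's quasi-likelihood test). Compared to DU145KO they were IRF8 (adjusted p = 0.000159), SLFN5 (log2 fold change −0.76, adjusted p = 0.000218), NLRC5 (−0.74, adjusted p = 0.00025) and PARP10 (−1.06, adjusted p = 0.000496). IRF8 passed the filter through DU145KO alone, with 23, 11, 22 and 19 counts there, 2 counts in each DU145KO+α2 sample and 6, 2, 3 and 2 counts in DU145KO+vector. As the transfected lines lay at or near the floor of 3 counts, no fold change is given for it. It was also called lower in DU145KO+vector than in DU145KO (adjusted p = 0.00255), as was IFI16, a DNA sensor (log2 fold change −0.85, adjusted p = 0.00856). The 74 pathway genes had a median log2 fold change of −0.13 and −0.21 in the α2 positive line against DU145KO+vector and DU145KO, over the 58 tested.

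The interferon stimulated genes also varied with the replicate number. In a model of line and replicate number, 26 of the 44 members (59.1%) were called for the replicate number, beside 35.7% of all genes tested. Without replicate 1 of DU145KO 17 members were called. The share of all genes was not computed for that fit, so whether the excess holds without this sample is not known. Replicate 1 was the highest sample for 38 of 44 members in DU145KO, 32 in DU145KO+vector and 24 in DU145KO+α2. Over all genes it was the highest in 27.3%, 29.4% and 25.9%. In DU145KO the member median was 0.46 above the line mean on the log2(CPM + 0.5) scale in replicate 1 and 0.27 below it in replicate 2, and in DU145KO+α2 the replicate medians lay between −0.11 and 0.18. What the replicate numbers stand for is not given beyond independent biological replicates, and the cause was not tested.

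**Figure D5:**
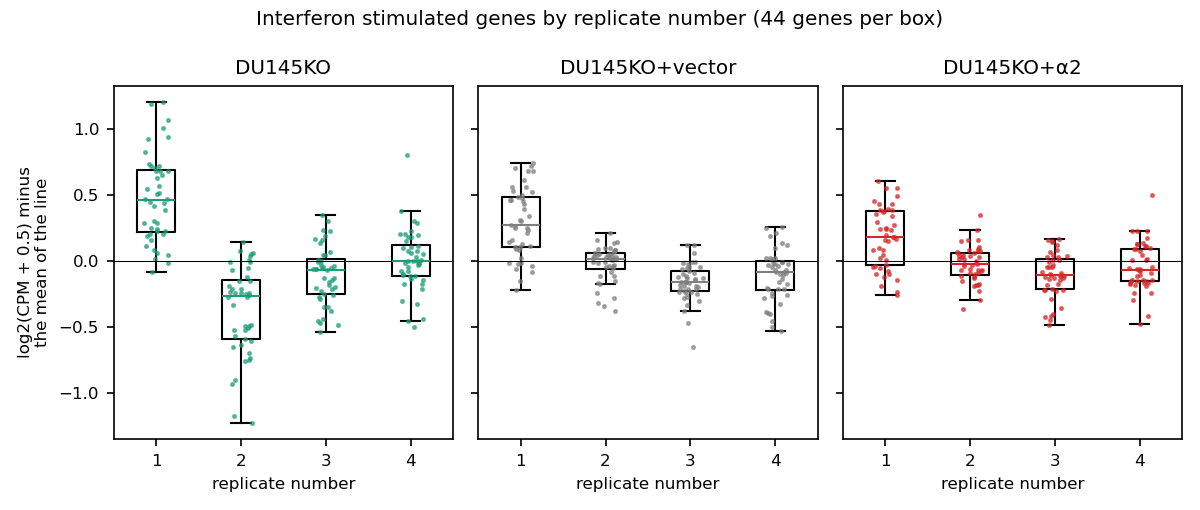
Deviation of each of the 44 members tested from its mean in the line, as log2(CPM + 0.5), by replicate number, with boxes for the quartiles, the median as a line, whiskers to the farthest value within 1.5 times the box height and points for genes. Replicate 1 has the highest median in each line, 0.46 in DU145KO, 0.27 in DU145KO+vector and 0.18 in DU145KO+α2.

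Within each replicate number, with 1 sample per line, 41, 41, 40 and 40 of the 44 members were lower in the α2 positive line than in DU145KO+vector in replicates 1 to 4, with median log2 differences of −0.72, −0.64, −0.63 and −0.57. Compared to DU145KO, 44, 41, 42 and 42 members were lower, with medians of −1.19, −0.51, −0.88 and −0.98. For DU145KO+vector compared to DU145KO the number varied more, 35, 15, 33 and 37 members, with medians of −0.38, 0.14, −0.11 and −0.23. In all 4 numbers, 37 members were lower in the α2 positive line than in DU145KO+vector and 39 lower than in DU145KO, whereas IFITM2 and GBP2 were higher than in DU145KO+vector in all 4. Between the α2 negative lines, 14 members were lower in DU145KO+vector in all 4 numbers and 1 (IFIT1) was higher. Without the 3 samples numbered 1, a choice made after seeing the data, 23 members were called lower and 2 higher compared to DU145KO+vector and 30 lower compared to DU145KO. The share of all genes was not computed for the counts of this paragraph.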

How the data were processed

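Spheroids of 3 lines were sequenced with 4 replicates each, grouped by the sample labels, and the paper's methods name independent biological replicates. Per the paper's methods and the labels, the authors aligned single-end reads of stranded libraries to hg38 with TopHat2 2.1.0, after base calling with bcl2fastq 1.8.4, and deposited uniquely aligned reads per gene as raw counts made with Subread 1.5.0. The authors also deposited RPKM values, which are these counts scaled by TMM and by gene length. Whether counting used the strand is not given in the sources used here.

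The counts were tested in R 4.3.3 with edgeR 4.0.16. Genes were kept by filterByExpr with a minimum count of 10, normalized by TMM and fitted with 1 coefficient per line over all 12 samples (robust quasi-likelihood F-test, two-sided, Benjamini-Hochberg adjustment over 14732 genes). Standard errors are the size of the log2 fold change divided by the square root of F. RPKM values were used for levels between genes. The scripts were tested on simulated counts. Within each line no pair of samples agreed within sampling noise (chi-square per degree of freedom 7.23 to 25.1), so none was counted as a duplicate, and p-values measure the spread between these samples. Samples of the same number deviated from their line means together (correlation across genes 0.148 to 0.603 over 12 pairs, mean −0.14 for different numbers). Taking deviations from the line means by itself pulls the mean for different numbers below 0. Single pairs of different number reached 0.184 (replicate 3 of DU145KO with replicate 2 of DU145KO+vector), above the lowest pair of the same number. Every pair of the same number being above 0.1, the numbers were taken to pair the samples.

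The members, the 74 pathway genes, the marker lists and the motifs were chosen with earlier results of these data known. Of the pathway and marker lists, 2 genes are counted in their lists and not reported here by name. Full statistics were given for up to 8 called members and up to 4 called pathway genes per comparison by the smallest adjusted p, with ITGA2 as the check of the labels. Members named beyond these were included to account for every member. The alternatives were DESeq2 1.42.0 size factors and Wald test, library size alone, voom with limma 3.58.1, other filters, a fold change above 2, the replicate block, a fit of the compared lines only and each sample left out. Promoters come from RefSeq (GRCh38.p14) and exon overlaps from GENCODE.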

Additional observations from a re-analysis of the deposited data

Results flagged for a closer look

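A gap test for a single sample far from the other 3 of its line (Dixon, at the 95% critical value for 4 samples) was applied to the CPM of the 44 members in each line, 132 groups in all. Chance flags about 1 in 20 groups, 6.6 here, and 11 were found, of which 9 had replicate 1 as the high sample. The gap as a share of the range was 0.899 for IFIT3, 0.887 for OASL, 0.883 for MX1, 0.881 for IFITM2 and 0.841 for BST2 in DU145KO+α2, where replicate 1 was highest each time. IFIT3 was counted there at 25.3 CPM against 13.87 to 15.03 CPM in the other replicates, and OASL at 30.4 CPM against 18.4 to 19.7 CPM. Replicate 1 was also the high sample for IFITM1 (0.839) and GBP1 (0.86) in DU145KO, and for IFIT1 (0.859) and IFI27 (0.938) in DU145KO+vector. IFI27 was at 2.33 CPM there against 1.38 to 1.44 CPM. Replicate 4 was high for EIF2AK2 in DU145KO+vector (0.836, 57.9 against 52.2 to 53.1 CPM) and low for STAT2 in DU145KO (0.866, 137 against 155 to 157 CPM). The cause was not tested.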

How the results depend on the processing

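No member with full statistics changed sign under any alternative in which it was tested. The condition of a fold change above 2 left 1 member higher and 13 lower in DU145KO+α2 against DU145KO+vector, and 18 lower against DU145KO. With the replicate number as a block (replicate block), 1 member was called higher in DU145KO+α2 against DU145KO, and in DU145KO+vector compared to DU145KO 1 was higher and 13 were lower. With each sample left out in turn, 19 to 29 members were lower in DU145KO+α2 against DU145KO+vector, 26 to 36 against DU145KO, and 2 to 4 were lower in DU145KO+vector compared to DU145KO. At least once in these fits EIF2AK2, IRF7, IFIT5, GBP2, OAS1, OASL and SAMD9 lost their call against DU145KO+vector, and ISG15, OAS3, IFIT5, BST2, SAMD9L, IFI27 and OAS2 theirs against DU145KO. In the same fits 1 to 2 members were higher in DU145KO+α2 against DU145KO+vector, with 1 after leaving out replicate 1 or 3 of DU145KO+α2 or replicate 2, 3 or 4 of DU145KO+vector, and 17 to 30 members were called for the replicate number. The share of all genes was not computed for the fits with a sample left out or with other filters. For the replicate number it was 35.7% with all samples. IFITM2 in DU145KO+vector compared to DU145KO lost its call in 5 alternatives (largest adjusted p = 0.075, edgeR, in the fit of both lines only). Without a filter on low counts, 24 of the 27 members called compared to DU145KO+vector and 29 of the 31 compared to DU145KO kept their call. Requiring at least 10 counts in every sample left 22 members lower against DU145KO+vector and 26 against DU145KO. That filter dropped GBP1, CMPK2, BST2, SAMD9L, XAF1 and IFI44L, so their calls were not tested there. CMPK2, SAMD9L, IFI44L and XAF1 averaged under 1 CPM in DU145KO+α2 and rest on few reads there, and depth limits their precision.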
